A study of Drosophila melanogaster with 36 samples.

Results

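The cytoplasmic ribosomal protein genes were described in S3 cells, a Drosophila cell line derived from embryos, in which lipid droplet storage is induced by feeding oleic acid (OA). Members were the genes of the count table whose FlyBase symbol begins with RpL or RpS followed by a digit or a capital P, leaving out the S6 kinases and the mitochondrial mRpL and mRpS genes. They also needed a mean of at least 5 CPM (the counts of a gene scaled to a fixed library total) over the 36 libraries, with the 18S rRNA gene left out of the total. Of 17142 genes in the table, 88 matched by symbol and 79 were members, of which 43 encode large subunit proteins, 31 small subunit proteins and 3 the acidic stalk (RpLP0, RpLP1 and RpLP2), and 2 are genes named after a relative (RpL24-like and RpLP0-like). The members just inside the limit were RpL24-like at a mean of 81.1 CPM and RpLP0-like at 104 CPM, and those just outside were RpS5b at 2.79 CPM and RpS19b at 0.805 CPM. The symbols RpL27A, RpL31, RpS10b and RpS12 had no match by symbol and are not analysed here.

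All cells were treated for 4 h. Without solvent there were 6 libraries of unfed cells (noOA) and 6 of cells fed 200 µM OA (OA). With 0.1% DMSO as solvent there were 3 libraries of unfed cells (vehicle noOA), 3 of fed cells (vehicle OA), and 3 of fed cells for each of 6 small molecules at 1 µM, an active and an inactive derivative of the chemotypes CT1, CT2 and CT3. Active derivatives are those that lower lipid droplet storage. The study calls them biological replicates, but the sources used here do not say whether the wells of a group were separate cultures, so p-values measure the spread between these libraries, which may be technical. No list of genes that define S3 cells was used, so the label of the line itself was not checked.

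Ribosomal proteins assemble with rRNA into the small subunit, which decodes mRNA, and the large subunit, which forms the peptide bond and carries the exit tunnel for the new chain. The stalk proteins of the large subunit recruit the translation factors that drive each step of elongation. Growing cells make the proteins in near-equal amounts, and in animals much of that balance is kept at translation and by the breakdown of unassembled protein. In Drosophila, loss of a single copy of many of these genes gives the Minute phenotype of slow development and short bristles.

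The libraries held 1208200 to 9548314 counts, of which 34.7 to 51.5% belonged to the 18S rRNA gene, so that 709547 to 6053034 counts were left for all other genes. The lowest count of any member in any library was 57. The 3 shallowest libraries were vehicle OA replicate 3, vehicle noOA replicate 1 and noOA replicate 1. In these 3 libraries the median deposited FPKM of the members was 503, 403 and 618, below the 981 to 1504 of all other libraries, while the members' median CPM was 113%, 114% and 108% of that of the median library. The low FPKM were shared by genes in general, with a median over genes of 5.95, 4.76 and 7.61 in these libraries and 11.9 to 17.0 elsewhere. Levels in FPKM are therefore given as medians over the 36 libraries.

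The members were among the most abundant messages of the cells, with 73 of 79 among the 500 genes with the highest mean CPM. Per length, the median of a member's FPKM over 36 libraries had a median of 1338 over the 79 members and quartiles of 978 and 1705, a ratio of 1.74. The middle of the family was thus narrow, and 58 members lay above 1000 FPKM and 5 below 500. The medians of the structural classes were close, at 1338 FPKM for the large subunit, 1373 for the small subunit and 1233 for the stalk.

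The highest levels per length belonged to RpL41, the shortest ribosomal protein, at 4212 FPKM, RpS29, a small zinc-binding protein of the small subunit, at 3066 FPKM, and the stalk protein RpLP1 at 3015 FPKM. RpL29, a short basic protein of the large subunit, followed at 2906 FPKM, and RpL40, made as a fusion with ubiquitin, at 2698 FPKM. RpL32, a gene widely used as a reference in expression assays, reached 2396 FPKM. The stalk base RpLP0 and the stalk protein RpLP2 lay at 1074 and 1233 FPKM, RpS3, at the mRNA entry, at 1186 FPKM, RpS6, the target of S6 kinase, at 887 FPKM, and RpL3, near the peptidyl transferase centre, at 679 FPKM. The estimates of RpL10 and RpL15 were listed at exactly 0 in 2 libraries each although every library held at least 721 counts of either gene, so those 4 values were not read as levels.

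**Figure D1:**
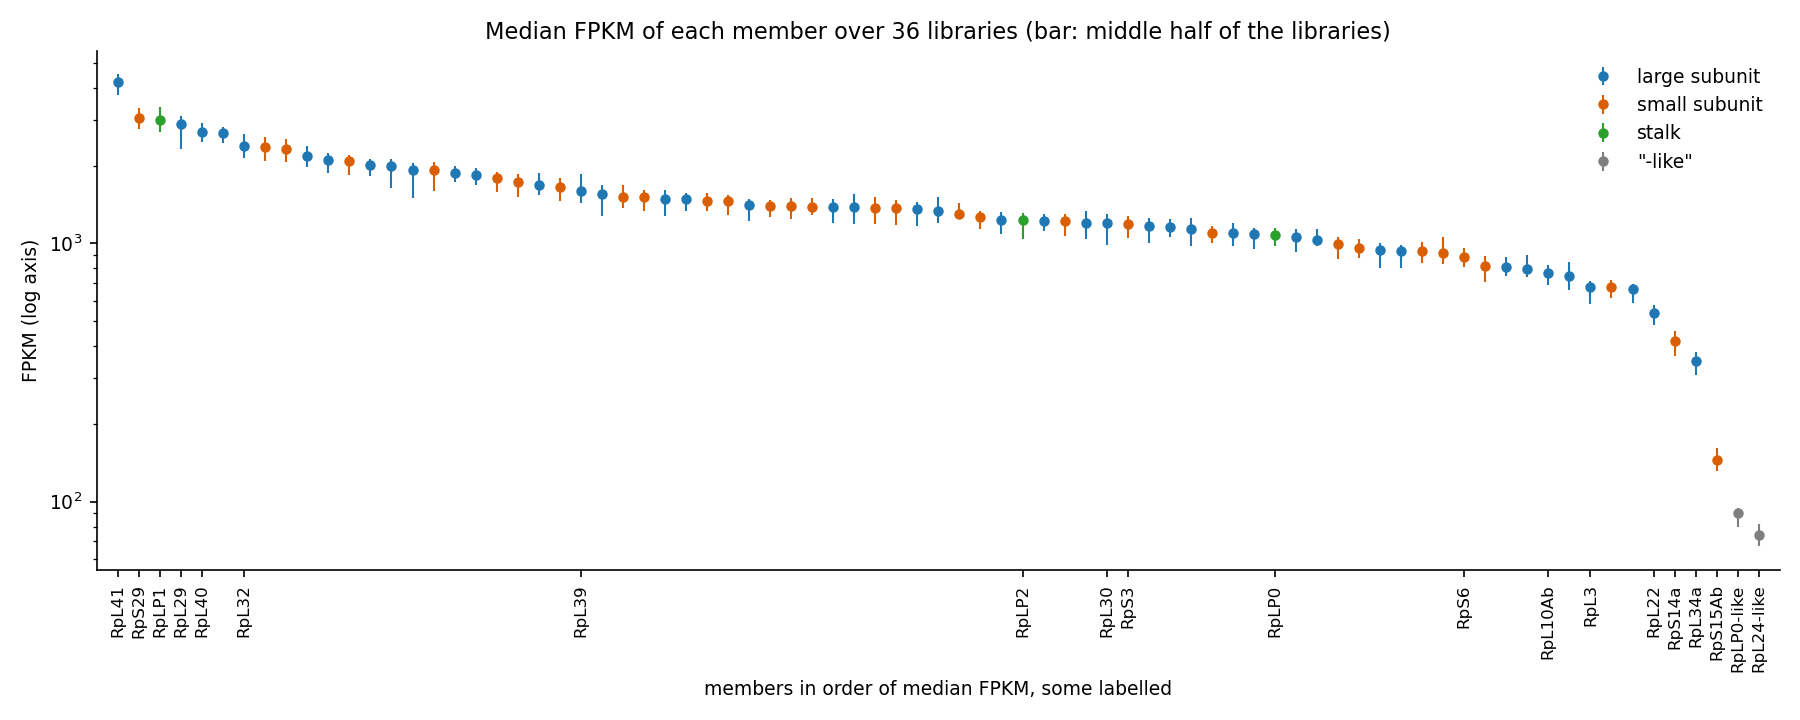
FPKM of the 79 ribosomal protein genes on a log axis, each point the median over 36 libraries and each bar the middle 50% of libraries, coloured by structural class, with some members labelled. The quartiles lie at 978 and 1705 FPKM, with RpL41 at 4212 at one end and RpL24-like at 74.1 at the other.

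The lowest 5 members were all genes with a close relative. RpL24-like lay at 74.1 FPKM and RpLP0-like at 90.5 FPKM, and their closest yeast counterparts, Rlp24 and Mrt4, are factors of large subunit assembly that are not part of the mature ribosome. RpS15Ab lay at 145 FPKM, RpL34a at 349 FPKM and RpS14a at 418 FPKM, each with a partner that encodes the same or nearly the same protein.

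In each of these pairs the minor copy held less of the counts in all 36 libraries. RpS14a, which lies beside RpS14b, held 40.9 to 48.3% of the pair, RpL34a held 19.6 to 24.8% of the pair with RpL34b, and RpS15Ab held 9.12 to 13.3% of the pair with RpS15Aa. RpL24-like held 5.16 to 8.16% against RpL24, and RpLP0-like 3.38 to 6.32% against RpLP0. The alignment kept 1 place per read, so the counts of near-identical copies could have been split between them by that choice and their separate levels are uncertain.

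Other copies were almost silent. RpS5b, a germline paralog of RpS5a, held a median of 0.183% of its pair, from 268 counts over all libraries, and RpS19b, likewise germline enriched, held at most 0.173% of the pair with RpS19a, from 81 counts. RpL22-like had 3 counts in all libraries together, RpL37-2 had 1 and RpL7-like had 1. RpL10Aa and RpS28a had 0 counts, which allows up to 0.0293 CPM at a floor of 3 counts over all libraries, counting error only. RpL7-like nevertheless had a median of 70.8 FPKM in the deposited estimates, so counts and FPKM differ for this gene.

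As a sum over the members, ribosomal protein messages took 7.36 to 10.1% of the counts outside 18S rRNA, with a mean of 8.71% ± 0.609 (SD, n = 36). In the noOA group the lowest, median and highest share were 8.05, 8.79 and 9.25%, and in the OA group 7.36, 8.65 and 9.0%. The vehicle noOA libraries held 9.47, 9.53 and 9.54%, and the vehicle OA libraries 8.37, 8.46 and 9.83%. All 3 vehicle noOA values lay above those of the groups without solvent, and the highest vehicle OA value belonged to a library outside the fits, replicate 3, the shallowest of all.

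Among fed cells given a derivative, the shares were 8.59, 8.34 and 7.72% with active CT1 and 8.12, 8.80 and 8.32% with inactive CT1. They were 8.62, 8.13 and 8.34% with active CT2 and 10.1, 8.25 and 8.85% with inactive CT2. They were 8.81, 8.54 and 8.81% with active CT3 and 9.17, 9.59 and 8.85% with inactive CT3. The active and inactive libraries overlapped for CT1 and CT2, and for CT3 the 3 inactive libraries all lay above the 3 active ones.

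**Figure D2:**
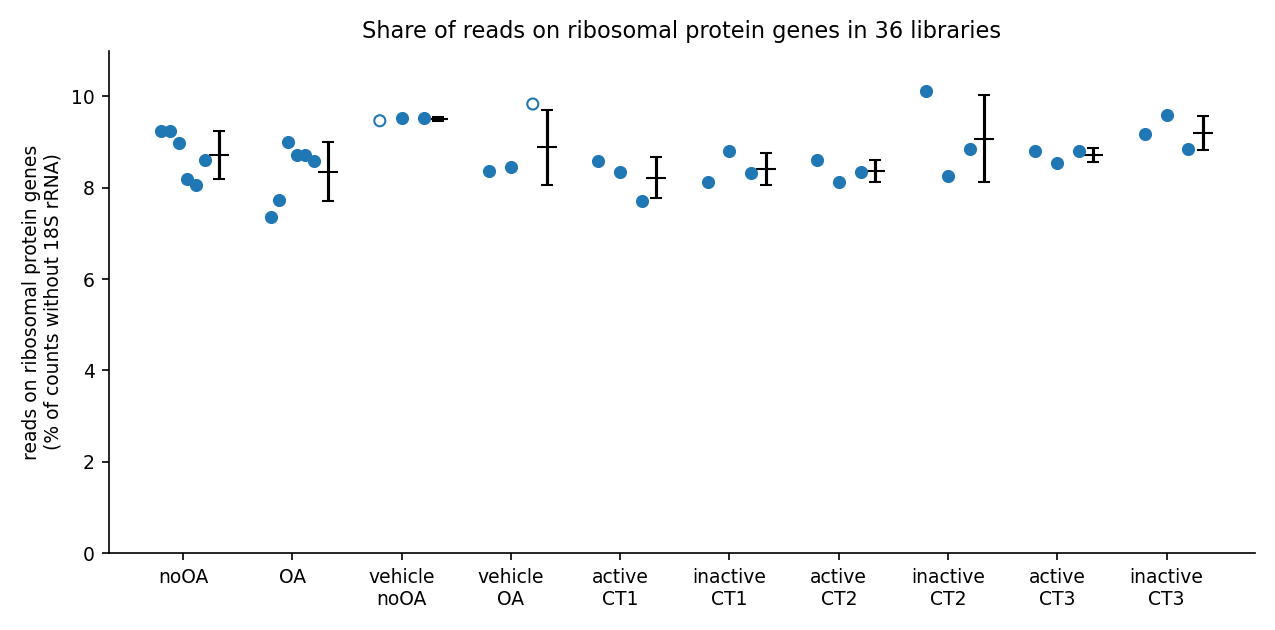
Share of counts outside 18S rRNA that belonged to the 79 ribosomal protein genes, in percent, 1 point per library by group, with the mean and SD of all libraries of a group as a black bar. Open circles mark the vehicle libraries outside the fits, of which vehicle OA replicate 3 lies at 9.83%, and all libraries lie between 7.36 and 10.1% on an axis that starts at 0.

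The balance between the subunits moved less than the sum. The small subunit genes held 0.667 to 0.703 times the counts of the large subunit genes, with a mean ratio of 0.685 ± 0.00902 (SD, n = 36). By group this mean ratio ran from 0.678 in the inactive CT1 and active CT2 groups to 0.694 in noOA.

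The members' share was set against depth, first with the libraries of all 10 groups pooled. Across 36 libraries it fell with the log10 of the counts outside 18S rRNA, with a Pearson's r of -0.53 (permutation p = 0.00085, adjusted p = 0.0068) and a Spearman's rho of -0.43 (permutation p = 0.0103, adjusted p = 0.0412), over 8 tests. Without the 2 libraries farthest from the median depth r was -0.41. As deviations from the group means r was -0.44 (permutation p = 0.0337, adjusted p = 0.0675) and rho -0.40 (permutation p = 0.0468, adjusted p = 0.075), and neither passed the adjustment. Within noOA r was -0.71 (exact permutation p = 0.108, n = 6) and rho -0.66 (exact permutation p = 0.175), and within OA r was -0.78 (exact permutation p = 0.0583, n = 6) and rho -0.89 (exact permutation p = 0.0333), with adjusted p of 0.124, 0.175, 0.0778 and 0.0675. The other groups held 3 libraries each, too few for a correlation. The part of depth in the differences between groups that follow was not tested.

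In cells with DMSO, OA went with lower ribosomal protein messages. Of 79 members, 17 fell and 0 rose at an adjusted p under 0.05, against 3.49% of all genes tested that fell and 3.05% that rose. The members' median log2 fold change was -0.22, against 0.00 over all genes, and 78 of 79 values were below 0. At an unadjusted p under 0.05 the count was 46 of 79, against 19.0% of genes in either direction. By class, 10 of 43 large subunit genes, 7 of 31 small subunit genes and 0 of 3 stalk genes fell. The comparison used vehicle noOA replicates 2 and 3 and vehicle OA replicates 1 and 2, the libraries kept by the study. In bulk RNA, fewer cells with a message and less of it per cell cannot be told apart, and all values are relative to the other messages.

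The largest fall was that of RpL39, a very short protein lining the exit tunnel. After TMM scaling, vehicle noOA held 283 and 305 CPM and vehicle OA 171 and 213 CPM, a log2 fold change of -0.60 (SE 0.167, adjusted p = 0.0218). Both fed libraries lay below both unfed ones. RpS21, of the small subunit, held 487 and 510 CPM against 338 and 417 CPM, a log2 fold change of -0.39 (SE 0.113, adjusted p = 0.0265). RpL38, of the large subunit, held 348 and 323 CPM against 253 and 260 CPM, a log2 fold change of -0.39 (SE 0.103, adjusted p = 0.0157). For both genes the fed libraries again lay below the unfed ones. The smallest adjusted p belonged to RpL10Ab, a protein of the mobile L1 stalk, chosen after its values were seen. Its levels were 789 and 803 CPM in vehicle noOA and 627 and 601 CPM in vehicle OA, a log2 fold change of -0.38 (SE 0.0799, adjusted p = 0.00186).

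Among genes named for other reasons, the minor copies RpL34a and RpS14a fell by 0.36 and 0.35 on the log2 scale, RpL41 by 0.36, and the ubiquitin fusions RpS27A and RpL40 by 0.31 and 0.27. Of the partner copies, RpS14b stood at -0.20 and RpL34b at -0.15, and neither passed the test. Others that fell, among them RpL23, RpS3A, RpL11, RpL17, RpS15, RpL10 and RpS2, did so by 0.23 to 0.34 on the log2 scale. RpLP1 had a log2 fold change of -0.39 (adjusted p = 0.0744) and RpLP2 of -0.22 (adjusted p = 0.153), so neither was called. The reference members RpL32, RpLP0, RpS3, RpS6 and RpL3 lay between -0.11 and -0.05 with none called, and for RpS6 the 95% interval ran from -0.20 to 0.10. RpLP0-like, at 0.07, was the single member above 0.

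**Figure D3:**
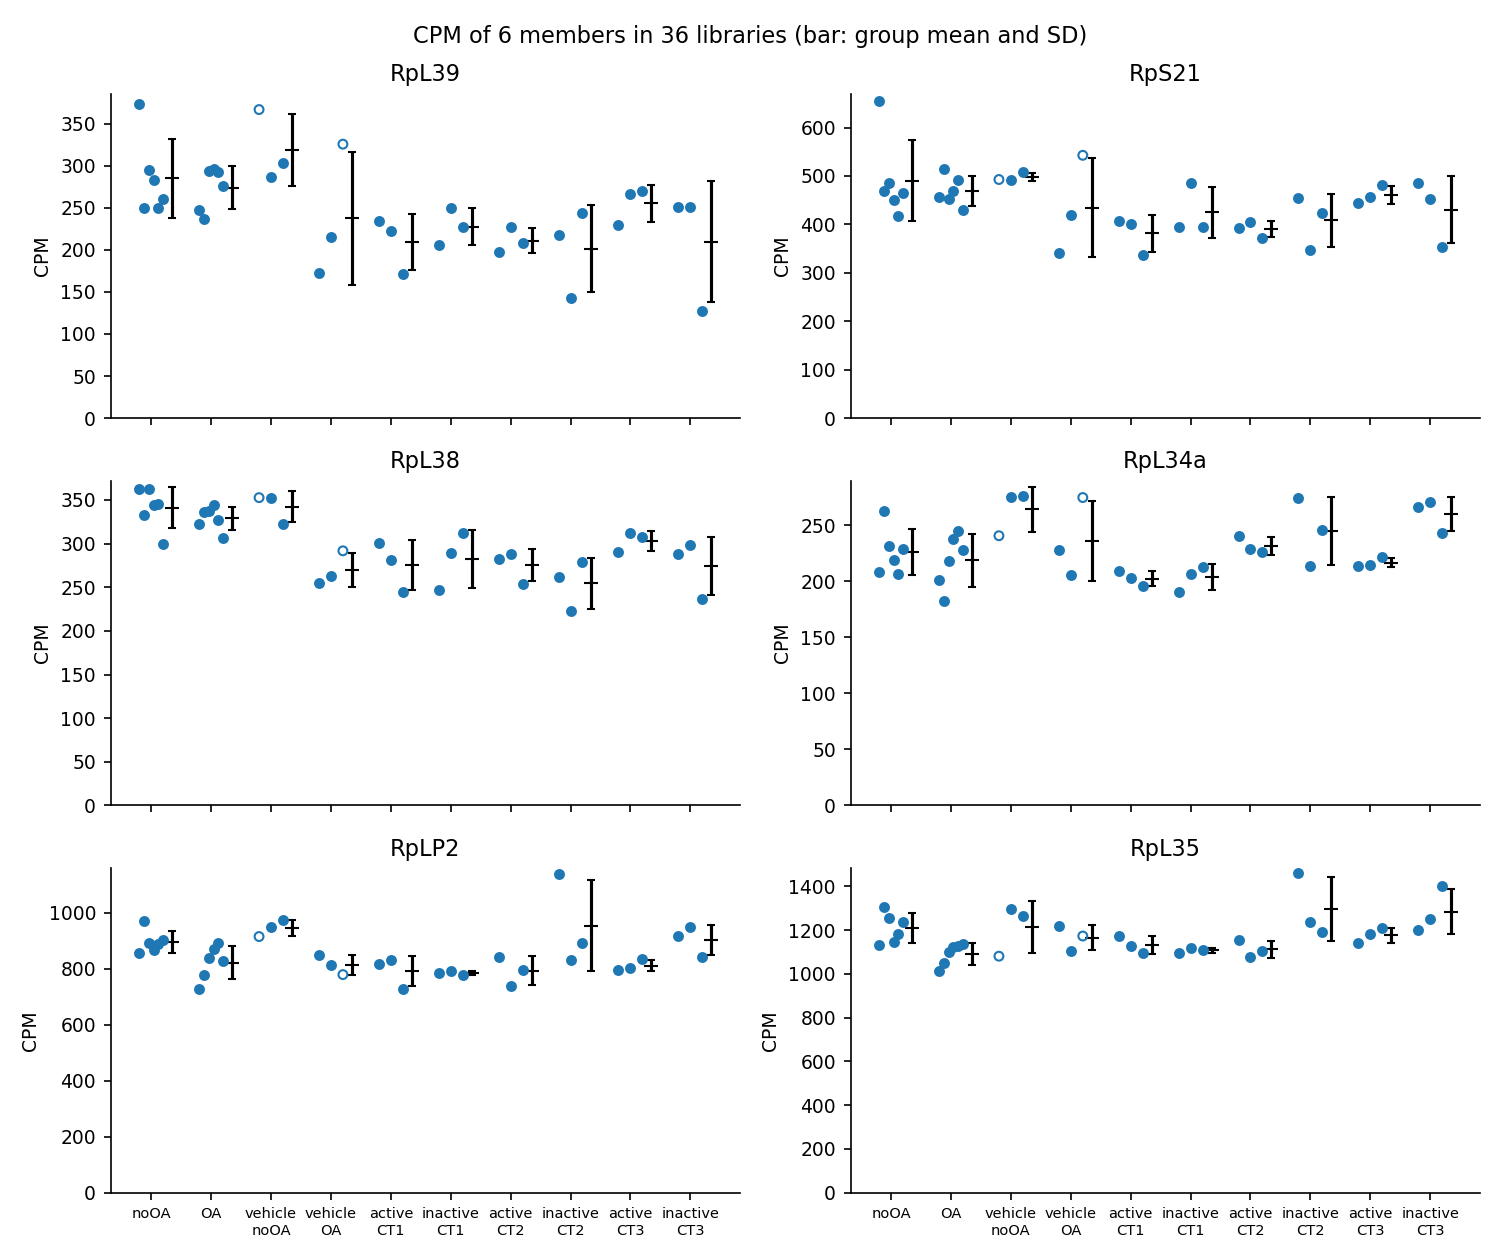
CPM in every library for members named in the text, 1 panel per gene, by group, with the mean and SD of all libraries as a black bar and open circles for the vehicle libraries outside the fits. RpL39 reached 326 CPM in the open vehicle OA library and 173 and 215 CPM in the filled ones.

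The calls rested on few libraries. Of the 79 members, 73 had both fed libraries below both unfed ones after TMM scaling, against 25.0% of genes. With all 3 vehicle libraries of each kind, in plain CPM, it was 14 of 79, against 9.69%. Both the libraries and the scaling differ between these counts, as in the similar counts further on. The part of each in the drop was not tested. For RpL39 the plain CPM of the 3 vehicle OA libraries were 173, 215 and 326 and those of the 3 vehicle noOA libraries 367, 286 and 303. With all 36 libraries in 1 fit, 6 members fell (RpS3A, RpL38, RpS14a, RpL10Ab, RpS27A and RpS29), against 3.31% of genes, and the median was -0.13. Other settings raised the count, to 48 with the compared groups alone, 34 without the filter on low counts and 32 with the replicate number as a block. The share of all genes called is not given for these settings, so those counts describe the members only. Without vehicle OA replicate 1 the count of called members was 4, without vehicle OA replicate 2 it was 2, without vehicle noOA replicate 2 it was 5 and without vehicle noOA replicate 3 it was 3, while the median stayed between -0.22 and -0.19.

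Without solvent, where both groups held 6 libraries, OA went with a smaller shift. There 6 members fell and 0 rose, against 6.70% of genes that fell and 6.86% that rose, so that the members' share of falls (7.59%) was near that of all genes. The median log2 fold change was -0.09, with 77 of 79 values below 0, and 24 members had an unadjusted p under 0.05, against 25.7% of genes. The 2 groups overlapped for every member, against 3.03% of genes whose OA libraries all lay below the noOA libraries.

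RpS15Aa, of the small subunit, had 832, 884 and 957 CPM as the lowest, median and highest of the noOA libraries and 758, 769 and 842 CPM in OA. Its log2 fold change was -0.18 (SE 0.044, adjusted p = 0.00361), and the groups overlapped only in the range from 832 to 842 CPM. RpL35, at the exit of the tunnel, had 1122, 1230 and 1325 CPM in noOA and 1015, 1101 and 1128 CPM in OA, a log2 fold change of -0.17 (SE 0.0466, adjusted p = 0.0114). RpL29 had 434, 459 and 498 CPM in noOA and 384, 436 and 444 CPM in OA, a log2 fold change of -0.15 (SE 0.0489, adjusted p = 0.0369). For these 3 genes the medians were lower in OA and the ranges touched. The other genes that fell were RpLP2 (-0.15), RpS23 (-0.14) and RpS27 (-0.14). RpL39 had a log2 fold change of -0.07 and RpL10Ab of -0.04, and neither passed the test.

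Leaving out 1 library moved the count of 6 members to between 2 and 10. It was 2 without OA replicate 1 or 2 or without noOA replicate 2, 3 or 6, 10 without OA replicate 3 and 9 without noOA replicate 4, and it lay between 4 and 7 without any other. With all 36 libraries in 1 fit it was 2, against 7.18% of genes.

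Set side by side, 77 members had a log2 fold change below 0 in both comparisons of OA, and for 73 the fall was larger with DMSO. None of the 17 called with DMSO was among the 6 called without it (0% of either list). In the test of the difference between the effects, 0 members passed in edgeR, as did 0% of all genes, and 0 passed in DESeq2. At an unadjusted p under 0.05 there were 11 members, against 3.89% of genes. The members' median difference was -0.10, with 71 of 79 below 0. For RpL39 the difference was -0.53 (95% interval -0.83 to -0.23, adjusted p = 0.999). The larger fall with DMSO was therefore not shown for any member.

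**Figure D4:**
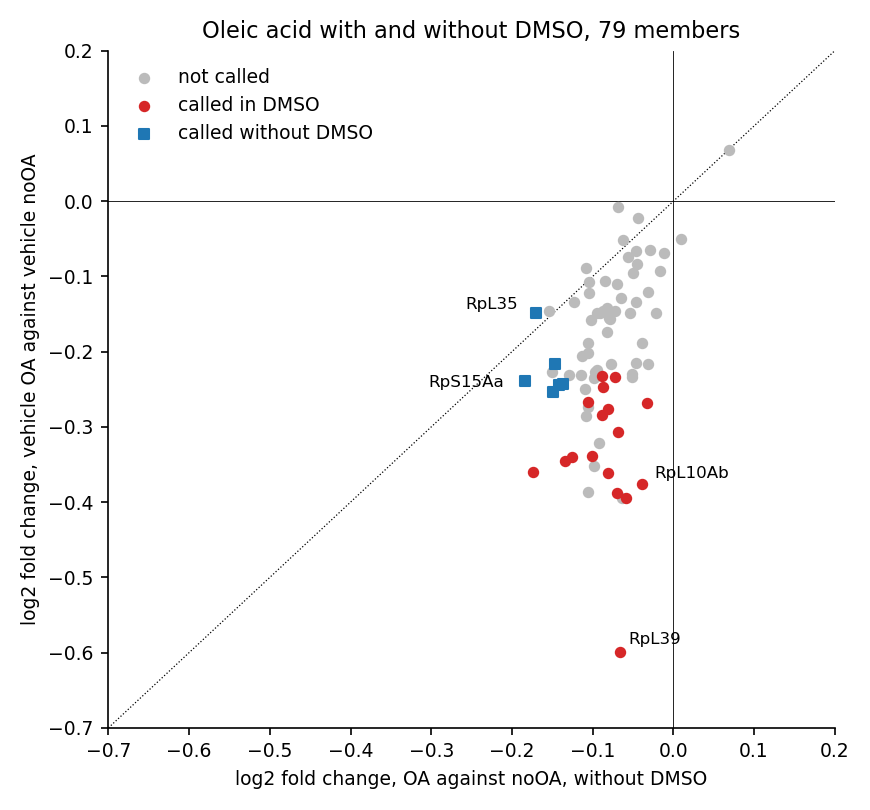
Log2 fold change with OA for 79 ribosomal protein genes, without DMSO on the x axis (6 against 6 libraries) and with DMSO on the y axis (2 against 2 libraries). Colours mark members that passed the test in either comparison, the dotted line marks equal values, and 77 points lie below 0 on both axes.

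Solvent alone was compared without and with OA. In unfed cells, 0 members passed in either direction in edgeR, against 0.0134% of genes that rose and 0% that fell, and 0 passed in DESeq2. At an unadjusted p under 0.05 there were 26 members, against 6.43% of genes. The median was 0.12 with 74 of 79 values above 0, and 27 members had both DMSO libraries of the fit above all 6 others, against 4.85% of genes. With vehicle noOA replicate 1, in plain CPM, it was 14 of 79, against 1.98% of genes. The largest values were those of RpL34a at 0.29 (adjusted p = 0.659) and RpL22, of the large subunit, at 0.28 (adjusted p = 0.742).

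In fed cells, 0 members passed in edgeR and in DESeq2, against 0% of genes in either direction, and the median was 0.03 with 51 of 79 values above 0. At an unadjusted p under 0.05 there were 14 members, against 5.25% of genes. The values ran from -0.46 for RpL39 (adjusted p = 0.412) to 0.23 for RpL22 (adjusted p = 0.917). These comparisons share the vehicle libraries with the comparison of OA in DMSO, so a high value of the vehicle noOA libraries enters both.

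Against vehicle OA, none of the 6 derivatives moved a member past the threshold in the edgeR fit of the 22 DMSO libraries. Active CT1 called 0 of 79, against 7.57% of genes that rose and 4.51% that fell, with a median of 0.01 and 0 members at an unadjusted p under 0.05 (22.7% of genes). Active CT2 called 0 of 79, against 1.87% that rose and 0.0531% that fell, with a median of 0.00 and 0 members at an unadjusted p under 0.05 (9.76% of genes). Genes at large thus responded to active CT1 while the members' 95% intervals ran no lower than -0.32 and no higher than 0.52, the latter for RpL36. DESeq2 called 0 members for either compound.

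Active CT3 called 0 of 79, against 3.86% of genes that rose and 0.956% that fell. Its median was 0.07 with 64 values above 0, 11 members had an unadjusted p under 0.05 (15.0% of genes), and 36 members lay above both vehicle OA libraries of the fit in all 3 libraries, against 16.8% of genes. With vehicle OA replicate 3, in plain CPM, it was 0 of 79, against 8.72% of genes. The highest values were RpL36, near the tunnel exit, at 0.43 (adjusted p = 0.181) and RpL39 at 0.41 (adjusted p = 0.154). DESeq2 called 0, edgeR on the compared groups alone called 14 and edgeR without the filter on low counts called 5.

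Of the inactive derivatives, CT1 called 0 of 79 (0% of genes in either direction), with a median of -0.01 and 1 member at an unadjusted p under 0.05 (4.87% of genes). Inactive CT2 called 0, against 0.544% of genes that rose and 0.305% that fell, with a median of 0.13, 76 values above 0 and 22 members at an unadjusted p under 0.05 (10.3% of genes). Leaving out inactive CT2 replicate 2 brought 5 calls, and without replicate 1 the median was 0.05. Inactive CT3 called 0, against 0.0133% that rose and 0% that fell, with a median of 0.14, 77 values above 0, 30 members at an unadjusted p under 0.05 (7.65% of genes) and 47 members above both vehicle OA libraries of the fit, against 12.6% of genes. With vehicle OA replicate 3, in plain CPM, it was 2 of 79, against 4.81% of genes. The highest member with inactive CT3 was RpS26, of the small subunit, at 0.33 (adjusted p = 0.109). DESeq2 called 0 members for inactive CT1 and CT2 and 1 for inactive CT3. The 6 comparisons share the same 2 vehicle OA libraries, which held the members' lowest shares of the vehicle groups at 8.37 and 8.46%. With all 36 libraries in 1 fit the medians against vehicle OA were 0.01 for active CT3, 0.05 for inactive CT2 and 0.08 for inactive CT3.

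**Figure D5:**
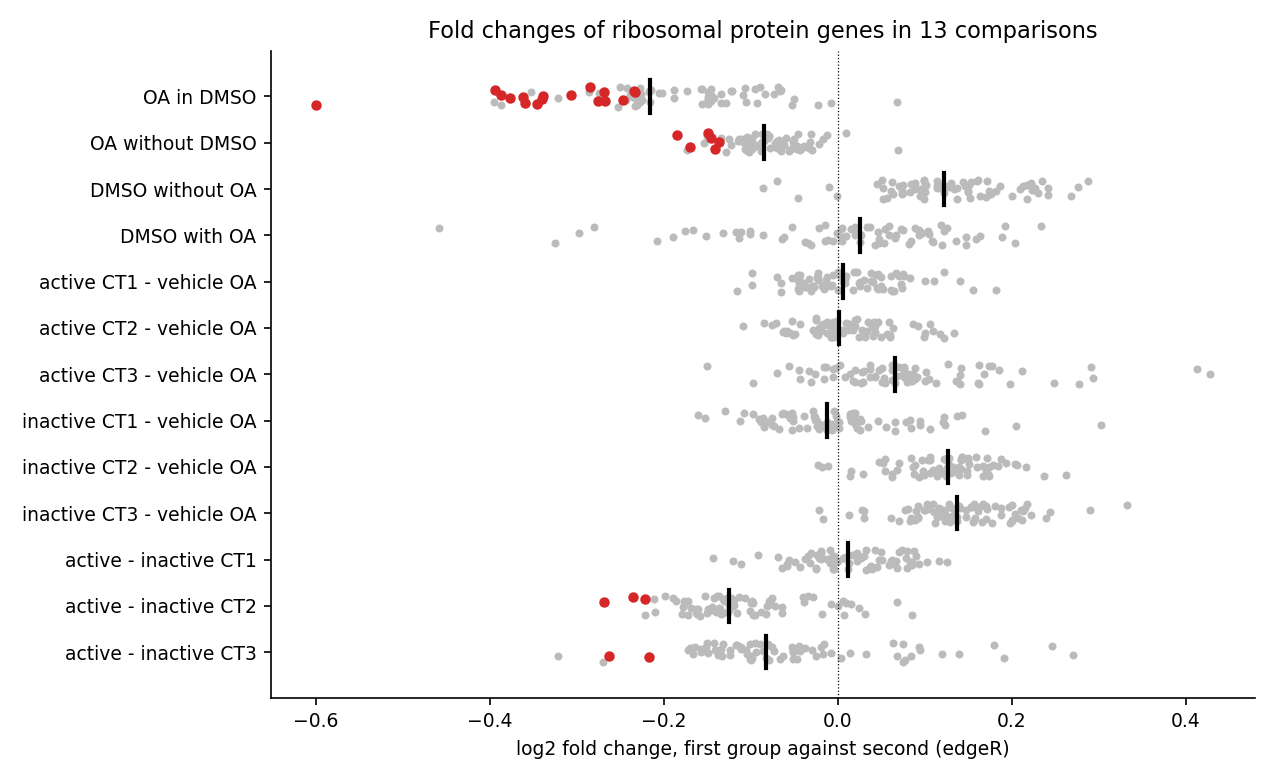
Log2 fold changes of the 79 ribosomal protein genes in each comparison of a pair of groups, 1 point per gene, with called genes in red, others in grey and the median as a black line. The medians run from -0.22 for OA in DMSO to 0.14 for inactive CT3 against vehicle OA.

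The active and inactive derivatives of a chemotype were compared directly at 1 µM and 4 h, which needs no vehicle library, in 3 pairs. For CT1, 0 of 79 members differed in edgeR and in DESeq2, against 8.48% of genes that were higher and 4.22% that were lower with the active compound, and 0 members had an unadjusted p under 0.05 (23.0% of genes). The median was 0.01, and the extremes were RpS28b, of the small subunit, at -0.14 (95% interval -0.30 to 0.02) and RpL11, of the large subunit, at 0.13 (95% interval -0.02 to 0.27). Across all members the intervals reached from -0.42 to 0.27.

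For CT2, 3 members were lower with the active compound and 0 higher, against 0.478% and 1.95% of genes. The median was -0.12, with 71 of 79 values below 0 and 34 members at an unadjusted p under 0.05 (15.5% of genes). RpLP2 had 1139, 831 and 903 CPM with the inactive compound and 851, 740 and 793 CPM with the active one, a log2 fold change of -0.27 (SE 0.0734, 95% interval -0.42 to -0.12, adjusted p = 0.0383). RpS18, in the head of the small subunit, had 758, 628 and 615 CPM against 595, 563 and 536 CPM, a log2 fold change of -0.24 (SE 0.0651, adjusted p = 0.0397). RpL35 had 1460, 1238 and 1204 CPM against 1164, 1077 and 1101 CPM, a log2 fold change of -0.22 (SE 0.0632, adjusted p = 0.0495). In all 3 genes inactive CT2 replicate 1 was far above the rest. The active libraries lay below the inactive ones for RpS18 and RpL35, and overlapped them for RpLP2.

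The CT2 difference turned on single libraries. Without inactive CT2 replicate 1 there were 0 called members and a median of -0.04, and without inactive CT2 replicate 2 there were 21 and -0.18. The count was 0 without active CT2 replicate 2 or 3, 2 without active CT2 replicate 1 and 5 without inactive CT2 replicate 3. Inactive CT2 replicate 1 was also the library with the highest members' share of all, 10.1%.

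For CT3, 2 members were lower with the active compound and 0 higher, against 0.584% and 3.12% of genes. The median was -0.08, with 62 values below 0 and 19 members at an unadjusted p under 0.05 (13.6% of genes). RpL34a had 269, 270 and 242 CPM with the inactive compound and 215, 217 and 221 CPM with the active one, a log2 fold change of -0.26 (SE 0.0695, adjusted p = 0.0193). RpL3 had 1929, 1982 and 1973 CPM against 1720, 1608 and 1733 CPM, a log2 fold change of -0.22 (SE 0.0597, adjusted p = 0.0277). For both genes the 3 active libraries lay below the 3 inactive ones. After TMM scaling this held for 31 of 79 members, against 8.82% of genes. The reverse held for 0 members, against 10.2% of genes. Leaving out any 1 of the 6 libraries left 0 or 1 called member, although the median stayed between -0.10 and -0.07.

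Whether the chemotypes differ in the step from inactive to active was tested in 3 pairs. Between CT1 and CT2 the difference passed for 2 members, RpLP2 at 0.33 (SE 0.104, 95% interval 0.12 to 0.54, adjusted p = 0.0405) and RpL35 at 0.30 (SE 0.0892, 95% interval 0.12 to 0.49, adjusted p = 0.025), against 4.45% of genes higher and 3.20% lower. The median difference was 0.13 with 66 of 79 above 0. It took 0 to 9 called members when 1 library was left out, with 0 without inactive CT2 replicate 1. Between CT1 and CT3, 0 members passed in edgeR and in DESeq2 (1.41% of genes higher and 0.226% lower), with a median of 0.10 and 19 members at an unadjusted p under 0.05 (11.1% of genes). Between CT2 and CT3, 0 members passed in edgeR and in DESeq2 (0.266% higher and 0.558% lower), with a median of -0.05 and 0 members at an unadjusted p under 0.05 (9.81% of genes), and intervals from -0.72 to 0.40. The p-values of each comparison were adjusted over all genes, not over the 3 pairs.

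The spread of the members over the 10 groups was set beside that of other genes, with no matching on abundance. The range of a member's 10 group means of log2 CPM had a median of 0.28 and ran from 0.13 to 0.69. The SD of the group means had a median of 0.089 for the members and 0.0916 for 2457 other genes that were at or above the lowest member and never at 0. Within groups the SD had a median of 0.115 for the members and 0.101 for the others. RpL39 varied most, with an SD of group means of 0.235 on the log2 scale, a range of 0.69 and a within-group SD of 0.279. RpL30, of the large subunit, had the smallest SD of group means, 0.0474, and by range of group means RpS24 was lower, at 0.13 against 0.14. The highest of the 10 group means was vehicle noOA for 52 members, inactive CT3 for 19 and inactive CT2 for 6. The lowest was active CT1 for 28 and OA for 26.

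RpL39 had means of 285 ± 47.0 CPM in noOA (SD, n = 6), 274 ± 25.7 in OA (n = 6), 319 ± 42.4 in vehicle noOA (n = 3) and 238 ± 79 in vehicle OA (n = 3). With the derivatives it lay at 209 ± 33.6 with active CT1, 228 ± 22 with inactive CT1, 211 ± 15.2 with active CT2, 201 ± 51.9 with inactive CT2, 255 ± 22.1 with active CT3 and 210 ± 71.7 with inactive CT3 (SD, n = 3 each). From the highest to the lowest, neighbouring groups in that order differed by less than the larger of their SDs. RpLP0 ran from 2076 ± 138 with active CT1 to 2447 ± 58.2 with inactive CT3, and RpS6 from 1266 ± 83.0 in OA to 1505 ± 17.7 with inactive CT3 (SD, n = 3, and n = 6 for OA).

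The other genes of translation did not all share the members' direction with OA. Of 20 genes of ribosome biogenesis, 1 rose with OA in DMSO, the box C/D snoRNP protein nop5 at 0.31 (adjusted p = 0.00785), and 18 of 20 values were above 0 with a median of 0.17, against 0.00 over all genes. Without DMSO 7 of 20 rose, led by Polr1B, a subunit of RNA polymerase I, at 0.43 and nop5 at 0.27, with a median of 0.12. The members' medians in the same comparisons were -0.22 and -0.09. With active CT1, 4 of 20 were lower than in vehicle OA, led by the polymerase I initiation factor Tif-IA at -0.34 and the RNA helicase pit at -0.26, and with active CT3 2 were lower, Tif-IA at -0.34 and nop5 at -0.26. In the same direction the shares of all genes were 3.05% and 6.86% that rose with OA with and without DMSO, 4.51% lower with active CT1 and 0.956% lower with active CT3.

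Of 35 initiation factor genes tested, eIF2A at -0.28 and eIF3i at -0.26 fell with OA in DMSO and eIF2A at -0.24 fell without it, where 3.49% and 6.70% of all genes fell. With active CT1, 4 were lower than in vehicle OA, led by eIF4B at -0.30 and eIF6, which keeps the subunits apart, at -0.27. Of 8 elongation and related genes tested, 0 passed for OA in either setting and eEF1delta was lower with active CT1, at -0.26 (adjusted p = 0.011). Of 71 mitochondrial ribosomal protein genes tested, mRpS25 fell by 0.64 with OA in DMSO and mRpS30 rose by 0.20 without it, and their medians were -0.08 and -0.01. The cytoplasmic ribosomal protein gene sta, whose symbol falls outside the rule, stood at -0.06 and -0.05 with OA with and without DMSO. Between active and inactive CT2, sta stood at -0.16, beside a members' median of -0.12. Mitochondrial genes had a median of -0.15 (63 of 71 below 0) and initiation genes -0.12 (29 of 35). Elongation genes stood at -0.10 (8 of 8) and biogenesis genes at -0.03 (13 of 20). Against vehicle OA, mitochondrial medians were 0.09 with inactive CT2 and 0.10 with inactive CT3. Those of initiation were 0.004 and 0.03, of elongation 0.03 and -0.003 and of biogenesis -0.05 and -0.06.

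Genes with short transcripts moved in the same direction as the members with OA in DMSO. By exonic length, 9 members under 600 nt had a median log2 fold change of -0.25 and 70 longer members one of -0.21. Among other genes the medians were -0.19 for 269 under 600 nt and 0.00 for 7049 longer ones. With active CT3 against vehicle OA they were 0.16 for short and 0.06 for longer members, and 0.19 and -0.01 for other genes. Between active and inactive CT3 they were 0.06 and -0.10 for members, and 0.09 and -0.01 for other genes. In the CT2 pair short members stood at -0.08 and longer ones at -0.13. RpL39 has 288 nt of exonic sequence, RpL41 320 nt and RpL29 389 nt. The split was chosen after the data were seen, and the part of transcript length in the members' values was not tested.

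Genes used as markers of hemocytes and of the germline were read beside these results. The summed CPM of 5 hemocyte genes was 6903 to 7599 in noOA and 7733 to 8492 in OA, and 7121 to 7552 in vehicle noOA and 8493 to 8782 in vehicle OA. Most of this sum was Pxn, at a mean of 5609 CPM over all libraries. The means of srp, Col4a1 and Hml were 1325, 972 and 264 CPM. None of the 5 was at 0 in every library, and NimC1 was lowest at a mean of 0.249 CPM. The GATA factor srp rose with OA by 0.37 on the log2 scale with DMSO and by 0.25 without. Hml rose by 0.26 without DMSO. All 4 hemocyte genes tested were above 0 in both comparisons. The summed CPM of 4 germline genes ran from 29.4 to 46.5 over all libraries, and most of it was aub, at a mean of 34.9 CPM. The others were low, with piwi at a mean of 1.52, bam at 0.82 and nanos at 0.66 CPM. A further germline symbol on the list, vas, had no match by symbol. Whether the S3 cells themselves make these messages was not tested, nor was the part of other cell types in the members' values.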

How the data were processed

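PolyA RNA was sequenced from stranded libraries. The authors aligned reads with TopHat2 2.0.10 to Release 5 of the Drosophila genome with FlyBase 5.57 gene models, keeping 1 place per read, so reads of near-identical copies can fall on either. The deposited counts are whole reads per gene over exons, from HTSeq 0.5.4p1, and the deposited FPKM, from Cufflinks 2.1.1, are fragments scaled by transcript length and library size. FPKM compare genes within a sample, counts compare samples.

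The 18S rRNA gene was left out of all totals. Counts were tested with the quasi-likelihood F-test of edgeR 4.0.16 in R 4.3.3, with TMM scaling, a filter on low counts by group and Benjamini-Hochberg adjustment over all genes tested. Members were called at an adjusted p under 0.05. A standard error is the log2 fold change divided by the square root of F, and the 95% interval uses the fit's degrees of freedom. One fit held the 22 DMSO libraries whose FPKM the study tabulates (7531 genes) and another held 16 control libraries (7460 genes). Vehicle noOA replicate 1 and vehicle OA replicate 3 entered only the fit on all 36 libraries. Alternatives used DESeq2 1.42.0, limma 3.58.1 on log2(FPKM + 1) and the settings in the closing section. The fits were also run on simulated counts with the same spread for every gene, and how often small changes were recovered is not given here. No pair of libraries held the same counts within sampling noise.

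Of 17142 IDs, 16896 had a symbol, 16815 of them from the reference table and the others from the study's own table. Exonic lengths came from Ensembl's annotation of BDGP6. Intervals cover counting error and the spread between libraries only. The members, gene lists and tests were chosen with earlier results of these data known. Members were named by a rule: the 5 highest and 5 lowest by mean FPKM, paralog pairs, 7 reference members, the 3 largest rises and falls called in each comparison, the most and least variable member, and, for other lists, the 2 largest rises and falls called. Other names were chosen after their values were seen. An item not reported here by name stays in the sums and counts over members.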

Additional observations from a re-analysis of the deposited data

Results flagged for a closer look

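In the noOA group, replicate 1 stood apart from the other 5 libraries for RpL39, at 373 CPM against 249 to 295 CPM, and for RpS21, at 654 CPM against 416 to 486 CPM. This library is the shallowest of its group. Such a gap appears in about 1 of 20 groups by chance, and 32 were examined. The step from the inactive to the active derivative differed between CT1 and CT2 for RpLP2, by 0.33 on the log2 scale (adjusted p = 0.0405), and for RpL35, by 0.30 (adjusted p = 0.025), by the test of the difference itself in edgeR. These members are 2.53% of the 79, below the 4.45% of all genes that were higher in this test. When 1 library was left out at a time, RpLP2 lost its call in 8 of 12 fits and RpL35 in 6 of 12. Without inactive CT2 replicate 1 no member passed this test.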

How the results depend on the processing

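With all 36 libraries in 1 fit the called members were 6 for OA in DMSO, 2 for OA without DMSO and 0 for active against inactive CT2, active against inactive CT3 and the difference between CT1 and CT2. With limma on log2(FPKM + 1), with or without the filter, they were 0 in each of these 5, and RpL35 with OA without DMSO turned to 0.041. The members' median also turned in this setting, to 0.13 for OA without DMSO, -0.12 for DMSO with OA and 0.14 for CT2 against CT3, and was 0.00 for the CT2 pair. Those FPKM are not scaled between libraries. Without the filter on low counts the called members were 34 for OA in DMSO, 1 for DMSO without OA, 3 for DMSO with OA, 5 for active CT3, 1 for inactive CT1, 1 for inactive CT3, 5 for the CT2 pair, 6 for the CT3 pair, 1 for the difference between the OA effects, 4 for CT1 against CT2 and 1 for CT1 against CT3. With the compared groups alone they were 48 for OA in DMSO, 2 for OA without DMSO, 14 for active CT3, 0 for the CT2 pair and 0 for CT1 against CT2. DESeq2 called 1 for inactive CT3 and 4 for CT1 against CT2. Outside the fit on all 36 libraries, the share of all genes called under an alternative setting is not given. The same holds for the fits with 1 library left out. Those counts therefore describe the members only.

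With the replicate number as a block the count was 32 for OA in DMSO, 2 for OA without DMSO and 4 for CT1 against CT2. Same-numbered samples did not deviate together in every pair of any comparison with 3 or more pairs, so the numbers were not taken to pair the samples.

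Leaving out 1 library at a time gave 2 to 5 called members for OA in DMSO, 2 to 10 for OA without DMSO, 0 to 5 for inactive CT2, 0 to 21 for the CT2 pair, 0 to 1 for the CT3 pair and 0 to 9 for CT1 against CT2. The cause of these changes was not tested. Of the members' median fold changes, 267 stayed within 1 SD of the value given and 18 moved. That SD is the spread of the members' log2 share between single libraries of a group, not an error of the median. It is wide beside the medians. For the CT2 pair, leaving out 1 library gave medians from -0.18 to -0.04, and 0 of these counted as moved. The count of 267 is therefore not a measure of stable medians. Of the values of named members, 125 kept their direction and call, 92 kept the direction but not the call and 2 turned. The median for OA in DMSO relative to all genes was -0.21, and -0.13 with all 36 libraries. The 2 vehicle libraries of each kind and the shallow libraries limit how small a difference could be called.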
